A study of Saccharomyces cerevisiae S288C with 8 samples.

Results

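The Cse4 ChIP of the wild type strain with endogenous Cse4 gave 389 peaks that lay away from the centromeres and that overlapped no peak of the cdc7-7 strain with overexpressed Cse4. They were chosen from the 811 peaks of the wild type endogenous list by removing 16 peaks at centromeres and 406 others that shared at least 1 bp with a cdc7-7 GAL peak. The 4 lists of the series hold 3243 peaks together. Most of the 389 regions lay inside genes, and the strongest of them covered the bodies of genes such as YEF3, PMA1, RPL10 and CDC19. Of the 138 ribosomal protein genes, 75 held the summit of at least 1 of these regions.

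Cse4 is the budding yeast form of CENP-A, the histone H3 variant that marks the centromere, and each yeast chromosome has a single short centromere made of the elements CDEI, CDEII and CDEIII. Cdc7 is the catalytic subunit of the Dbf4-dependent kinase, and cdc7-7 is a conditional allele of its gene. According to the study's text, the ChIP-seq cultures were grown at the permissive temperature of this allele. When Cse4 is overproduced, it can be found outside centromeres, and its proteolysis limits this. ChIP of many unrelated proteins in yeast can also give weak enrichment at heavily transcribed genes, which is a known property of the assay and was not measured in these libraries.

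Each strain gave 1 ChIP library and 1 input library, 8 in all, and 1 peak list, so differences between strains have no replicate check and carry no p-values. Endogenous Cse4 was precipitated from a wild type strain (genotype CSE4-HA) and a mutant (CSE4-HA cdc7-7), both grown in glucose. The strains with overexpressed Cse4 (GAL-CSE4-FLAG, and GAL-CSE4-FLAG cdc7-7) were grown in raffinose/galactose for 1.75 hr, so the medium and the expression of Cse4 changed together. All cells were fixed with formaldehyde, and the anti-FLAG M2 gel was used for every precipitation, although the endogenous protein is HA-tagged according to the labels and Flag-tagged according to the study's text. The value of a peak is its fold enrichment, the number of ChIP fragments at the summit divided by the number predicted from the input, after adding 1 to both. The libraries differed in depth: with the wild type endogenous library set to 100%, the background at the centromeres was 38.0% in cdc7-7 endogenous, 18.9% in wild type GAL and 72.7% in cdc7-7 GAL. Each of the 16 centromeres was a peak in the wild type endogenous list. Intervals on shares are 95% Wilson intervals and cover counting error only, and neighboring regions of 1 gene are not independent.

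The sequences under the strongest regions show their place in the gene and the codons used there. The windows below are 20 codons each, in frame, from the R64 reference around the summits of 5 of the strongest regions and of the 3 weakest among those with the summit in coding sequence. Codons in capitals are the most used for their amino acid in the ribosomal protein genes, counted over 18 amino acids.
YEF3, chrXII:637263-637322, plus strand: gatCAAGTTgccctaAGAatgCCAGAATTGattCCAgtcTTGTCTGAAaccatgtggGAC
PMA1, chrVII:481122-481181, minus strand: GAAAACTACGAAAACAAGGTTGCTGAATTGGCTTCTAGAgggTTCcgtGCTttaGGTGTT
RPL10, chrXII:283338-283397, plus strand: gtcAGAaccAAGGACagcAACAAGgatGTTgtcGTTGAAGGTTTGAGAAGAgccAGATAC
CDC19, chrI:72236-72295, plus strand: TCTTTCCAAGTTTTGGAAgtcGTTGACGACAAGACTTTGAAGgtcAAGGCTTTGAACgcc
NSR1, chrVII:806517-806576, minus strand: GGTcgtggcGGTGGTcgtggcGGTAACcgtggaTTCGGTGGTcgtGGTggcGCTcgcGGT
ERB1, chrXIII:368412-368471, minus strand: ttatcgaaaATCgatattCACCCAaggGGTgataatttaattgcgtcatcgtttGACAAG
NPA3, chrX:571048-571107, minus strand: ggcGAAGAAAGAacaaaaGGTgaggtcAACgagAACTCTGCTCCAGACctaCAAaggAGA
POL5, chrV:51255-51314, minus strand: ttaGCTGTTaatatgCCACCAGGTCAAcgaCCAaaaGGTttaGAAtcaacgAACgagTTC

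Capitals took 11 of 20 codons at YEF3, 17 at PMA1, 14 at RPL10, 17 at CDC19 and 11 at NSR1. The weak regions had 6 at ERB1, 12 at NPA3 and 11 at POL5, so the windows of the weak and the strong regions overlap in this measure. Over whole genes, the most used codons made up a median of 38.4% of the codons of all genes, 54.8% in the genes that held a summit of the 389 regions, 44.1% in the genes of the 406 removed peaks and 76.1% in the ribosomal protein genes themselves, which set the scale.

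The regions were weak beside the centromeres. Their fold enrichment had a median of 1.39, with quartiles of 1.32 and 1.51 and a range from 1.21 to 2.43. The centromeres in the same list had a median of 5.45, and the lowest of them, at 3.40, was above every region. The 406 removed peaks had a median of 1.37, but 26.5% of the regions (from 22.3% to 31.1%) and 15.5% of the removed peaks (from 12.3% to 19.4%) had at least 1.5. At the summit, the pileup was a median of 263 fragments over a background of 188, against 282 over 203 for the removed peaks. The width was a median of 439 bp, from 237 to 3140 bp, and the regions covered 213697 bp together. Every chromosome held some, from 6 on chromosomes I and VI to 47 on chromosome IV. The region nearest to a centromere lay 1248 bp from it, and 24 lay under 20 kb from one, a count without a background share. The median distance was 210752 bp, against 175830 bp for the removed peaks.

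The strongest region covered YEF3, the gene of translation elongation factor 3, from end to end (chrXII:636780-639918). Its fold enrichment was 2.43 in the wild type endogenous list, where the pileup was 528 fragments over a background of 217. In cdc7-7 with endogenous Cse4, 2 peaks lay in the gene, with 2.09 and 1.72. No peak was called inside it in wild type GAL, and the nearest cdc7-7 GAL peak was 319 bp away.

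PMA1, which encodes the plasma membrane proton pump, was covered in full by a region of 3140 bp (chrVII:479547-482686) with a fold enrichment of 2.21. It was called in cdc7-7 endogenous with 1.87, and wild type GAL had 3 peaks there, with 1.93, 1.97 and 1.78. The nearest cdc7-7 GAL peak, with a fold enrichment of 1.41, lay 232 bp from the region, past the stop codon, and another with 1.94 lay upstream of the start codon. PMA1 and CIS3, which encodes a cell wall mannoprotein, were the only regions that overlapped peaks of both other lists. CIS3 had 1.5 in wild type endogenous, 1.83 in cdc7-7 endogenous and 1.88 in wild type GAL.

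RPL10, which encodes a protein of the large ribosomal subunit, had 2.13 in wild type endogenous and 2.14 in cdc7-7 endogenous. CDC19, the gene of pyruvate kinase, had 2.11 and 1.97 in the same lists. NSR1, which encodes a nucleolar protein needed for ribosome assembly, had 2.02 in wild type endogenous and no peak in cdc7-7 endogenous. Among these genes, only PMA1 had a peak in wild type GAL.

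**Figure D1:**
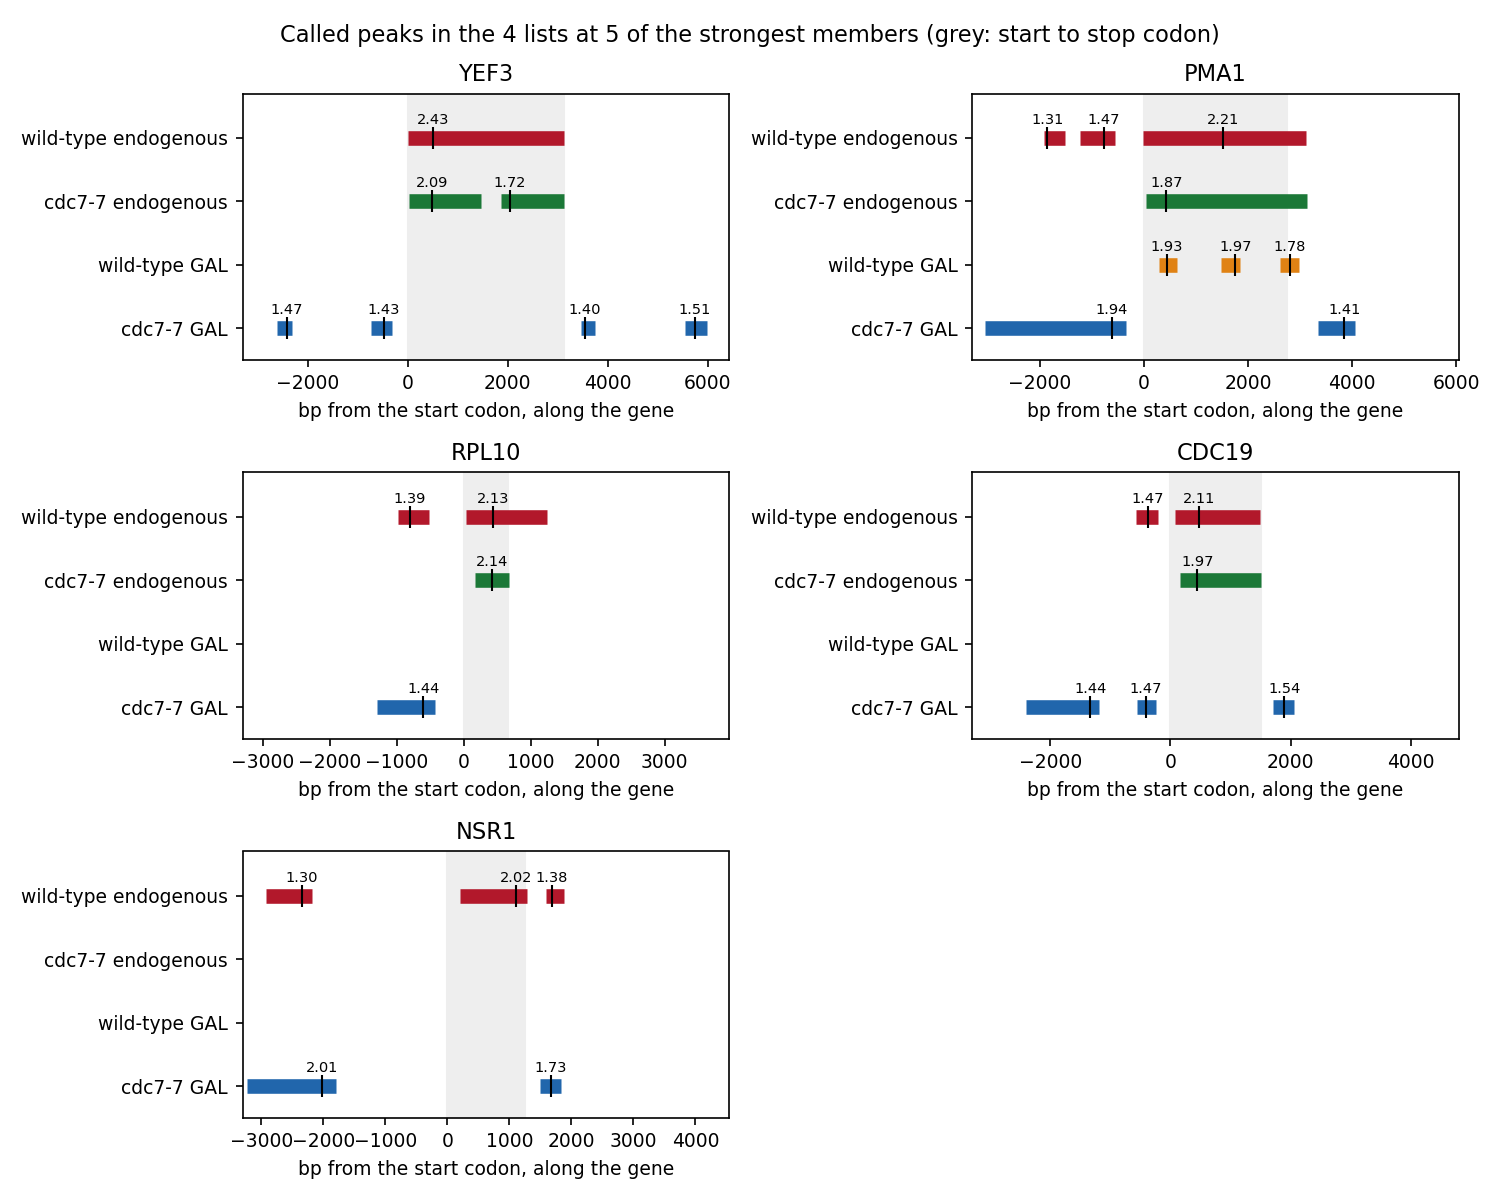
Called peaks in the 4 lists at 5 of the strongest regions, with the distance from the start codon in bp along the gene on the x axis, a bar for each called peak, a black tick at its summit and its fold enrichment above it. The grey band is the gene from start to stop codon, and cdc7-7 GAL peaks lie beside the genes because the rule removed every region that overlapped one.

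Further strong regions lay at RPL3 (1.95), RPS1A (1.93), SSA2 (1.91), CCW12 (1.91), DBP2 (1.90), RPS2 (1.89), ALD6 (1.89), RPL5 (1.87), FBA1 (1.85) and RPS9B (1.81). RPL3, RPS1A, RPS2, RPL5 and RPS9B encode ribosomal proteins. SSA2 encodes a cytosolic Hsp70, CCW12 a cell wall mannoprotein, DBP2 an RNA helicase, ALD6 the cytosolic aldehyde dehydrogenase and FBA1 the glycolytic aldolase. Others among the strongest 25, from 1.78 to 1.74, lay at CCW22, ASC1, PSA1, RPL16A, RPL8B, RPL28, RPS6B and UTH1. CCW22 is a pseudogene between MRX16 and YCF1 on chromosome IV, so its region counts as outside genes. PSA1 encodes the enzyme that makes GDP-mannose, and UTH1 a cell wall protein of the SUN family.

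The widest regions spanned most of a gene or ran into a neighbor. After PMA1 and YEF3 came a region of 1823 bp over RPL6A and TCB3, 1 of 1731 bp in INA1 and 1 of 1687 bp in DED1, which encodes an RNA helicase of translation initiation. The region in DED1 covered 92.8% of the gene, with a fold enrichment of 1.64. The lowest fold enrichments of the list were those of ATP18/TDA9 (1.22, between the genes), NPA3 (1.22), POL5 (1.22), RKI1/RPS7A (1.22, between the genes) and MRL1/TEF1 (1.21, between the genes).

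By the place of the summit, 313 of the 389 regions (80.5%, interval from 76.2% to 84.1%) lay in coding sequence, which is 72.3% of the nuclear genome. A further 15 lay in introns (3.86%), which are 0.539% of the genome. The summits of 61 (15.7%) lay outside genes, where 27.2% of the genome lies. Of the 406 removed peaks, 170 (41.9%) had the summit in coding sequence and 231 (56.9%) outside genes. The rule acts on this contrast, because cdc7-7 GAL peaks lie often at promoters, so it is a description of how the list was divided. Accordingly 121 of the 389 regions reached the 500 bp upstream of a start codon, against 304 of the 406 removed peaks.

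Within genes, the summits lay more often in the part nearer to the stop codon. Of 328 regions with the summit between start and stop codon, 202 (61.6%, from 56.2% to 66.7%) had it in the later 50% of the gene, with a median at 58.6% of the gene. The median distance from the start codon was 614 bp. The removed peaks had 90 of 175 (51.4%, from 44.1% to 58.7%) in the later 50%, a difference that the rule bears on in the same way. In genes of up to 1000 bp the median position was 62.9%, and in genes above 2000 bp it was 57.1%. The regions reached the start codon of their gene in 32 of 328 cases and the stop codon in 100, and 113 covered at least 50% of the gene. In NEW1 and DBP2, 3 separate regions lay in 1 gene, and 20 genes in all held more than 1.

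**Figure D2:**
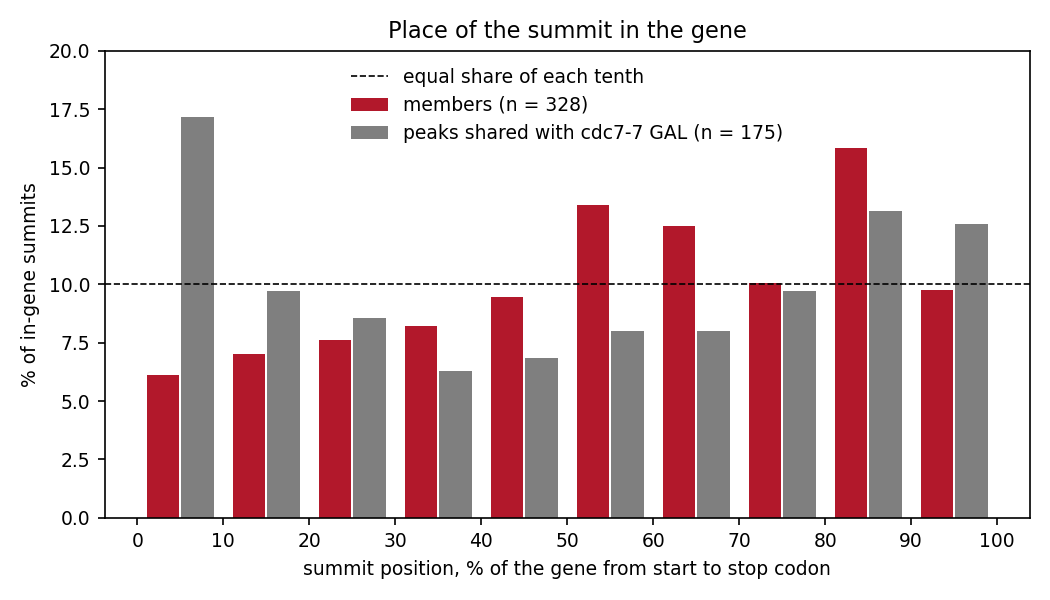
Share of in-gene summits (%) in each 10% of the gene, from the start codon at 0 to the stop codon at 100%, for the 328 regions with the summit in a gene and for the 175 removed peaks with the summit in a gene. The regions hold 6.10% in the first 10% and 15.9% between 80% and 90% of the gene, whereas the removed peaks hold 17.1% in the first 10%.

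The 15 summits in introns lay mostly in ribosomal protein genes, among them RPS6B (1.74), RPS23B (1.72) and RPL39 (1.54). The exceptions were YRA1 (1.62), which encodes an mRNA export factor, and DBP2 (1.40). Genes with an intron held 62 of the 328 in-gene summits (18.9%), while 5.30% of all genes have one. Introns in yeast are found often in ribosomal protein genes, so these counts are not independent of the gene lists described next.

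Altogether 306 of the 6002 protein-coding genes (5.10%) held the summit of at least 1 region, and this background stands beside each count of genes. Of the 328 in-gene regions, 199 (60.7%) lay in a gene of 1 of the 17 gene lists, which hold 12.4% of all genes. Ribosomal protein genes came first, with 75 of 138 (54.3%, from 46.0% to 62.4%). Their regions had a median fold enrichment of 1.55, and the summit lay at a median of 65.1% of the gene. A further 23 held the summit of a removed peak, and 40 held neither summit. Over all 6002 genes, 173 held the summit of a removed peak, so the removed peaks too lay often in ribosomal protein genes. Some of the 40 were still overlapped by a peak with the summit outside the gene. Removed peaks overlapped RPL1B (1.83) and RPL1A (1.40) in this way. Of those 40, 5 had under 50% of their 50-mers unique in the genome, among them RPL1A and RPL1B. The part of this in the missing summits of ribosomal protein genes was not tested.

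Ribosome biogenesis genes held a region in 31 of 93 cases (33.3%, from 24.6% to 43.4%), led by NSR1 (2.02), DBP2 (1.90), RRP9 (1.56) and NOP56 (1.56). RRP9 and NOP56 encode proteins of the small nucleolar ribonucleoproteins that process and modify rRNA. Aminoacyl-tRNA synthetases held 7 of 21, led by KRS1 (1.40), SES1 (1.39), DED81 (1.35) and YHR020W (1.35). Glycolysis and fermentation held 8 of 25 (32%, from 17.2% to 51.6%), with CDC19 (2.11), FBA1 (1.85), ADH4 (1.66) and TDH3 (1.63) at the top. Translation initiation held 7 of 29, with DED1 (1.64), PAB1 (1.57), TIF5 (1.48) and TIF34 (1.42). With all 389 regions counted, the intervals of all 4 lists lay above the share over all genes. The same held for each list in the next paragraph. Removed peaks had a summit in 6 of the 25 glycolysis and fermentation genes, against 173 of all 6002 genes, so this list was not particular to the regions. They had one in 3 aminoacyl-tRNA synthetase, 2 translation initiation and 2 ribosome biogenesis genes.

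Plasma membrane transport held 10 of 47 genes, led by PMA1, the zinc transporter gene ZRT2 (1.5), the drug efflux pump gene PDR5 (1.49) and the lysine permease gene LYP1 (1.44). Nucleotide synthesis held 8 of 37, led by URA5 (1.51), GUA1 (1.5), URA7 (1.48) and PRS1 (1.37), which serve pyrimidine, GMP, CTP and phosphoribosyl pyrophosphate synthesis. Chaperones held 8 of 40, led by SSA2, SSE1 (1.56), HSC82 (1.47) and YDJ1 (1.40), of the Hsp70, Hsp110, Hsp90 and Hsp40 families. Cell wall genes held 7 of 41, led by CCW12, UTH1, CIS3 and ECM33 (1.47). Amino acid biosynthesis held 10 of 82, led by GLY1 (1.68), THR4 (1.59), ILV2 (1.51) and CYS4 (1.44), which act in glycine, threonine, branched-chain amino acid and cysteine synthesis. Lipid and sterol synthesis held 5 of 41, led by FAS2 (1.41), OLE1 (1.40), ELO3 (1.36) and ERG6 (1.33). The first 3 of these make fatty acids and the last ergosterol. Removed peaks had a summit in 7 plasma membrane transport, 3 nucleotide synthesis and 3 chaperone genes. They had one in 2 cell wall, 5 amino acid biosynthesis and 3 lipid and sterol synthesis genes.

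In each of the remaining lists, 2 genes or fewer held a region. Translation elongation held 2 of 11 genes (18.2%, from 5.14% to 47.7%), YEF3 and TEF4 (1.69). No summit lay in TEF1, TEF2, EFT1 or EFT2, but peaks with the summit outside the gene overlapped TEF1. These were the region at MRL1/TEF1 (1.21) and a removed peak with the summit past the stop codon (2.08). The latter was also called in cdc7-7 endogenous (2.11). In TEF1 and TEF2, 7.53% of the 50-mers are unique, and in EFT1 and EFT2 8.06%, and only reads with 1 reportable position were kept. The part of this in the missing summits was not tested. Histone genes held 2 of 10 (20%, from 5.67% to 51.0%), HTA1 (1.40) and HHT1 (1.23). Hexose transporters held 2 of 18 (11.1%, from 3.10% to 32.8%), HXT1 (1.33) and HXT3 (1.28). The proteasome held 1 of 33 (3.03%, from 0.537% to 15.3%), at RPN7 (1.27). Mitochondrial ribosomal protein genes, whose products work in a different ribosome, held 0 of 69, an upper bound of 5.27%. The galactose genes held 0 of 7, an upper bound of 35.4%. The intervals of the hexose transporters, the proteasome, the mitochondrial ribosomal proteins and the galactose genes include the 5.10% of all genes. Counts above a stricter threshold were lower in most lists. At a minimum fold enrichment of 1.5, 48 ribosomal protein genes, 7 glycolysis and fermentation genes and 6 ribosome biogenesis genes held a region. Translation initiation kept 2 genes at this threshold. Aminoacyl-tRNA synthetases and lipid and sterol synthesis kept 0, so their counts rest on regions of low fold enrichment. The share over all genes at this threshold is not given here.

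**Figure D3:**
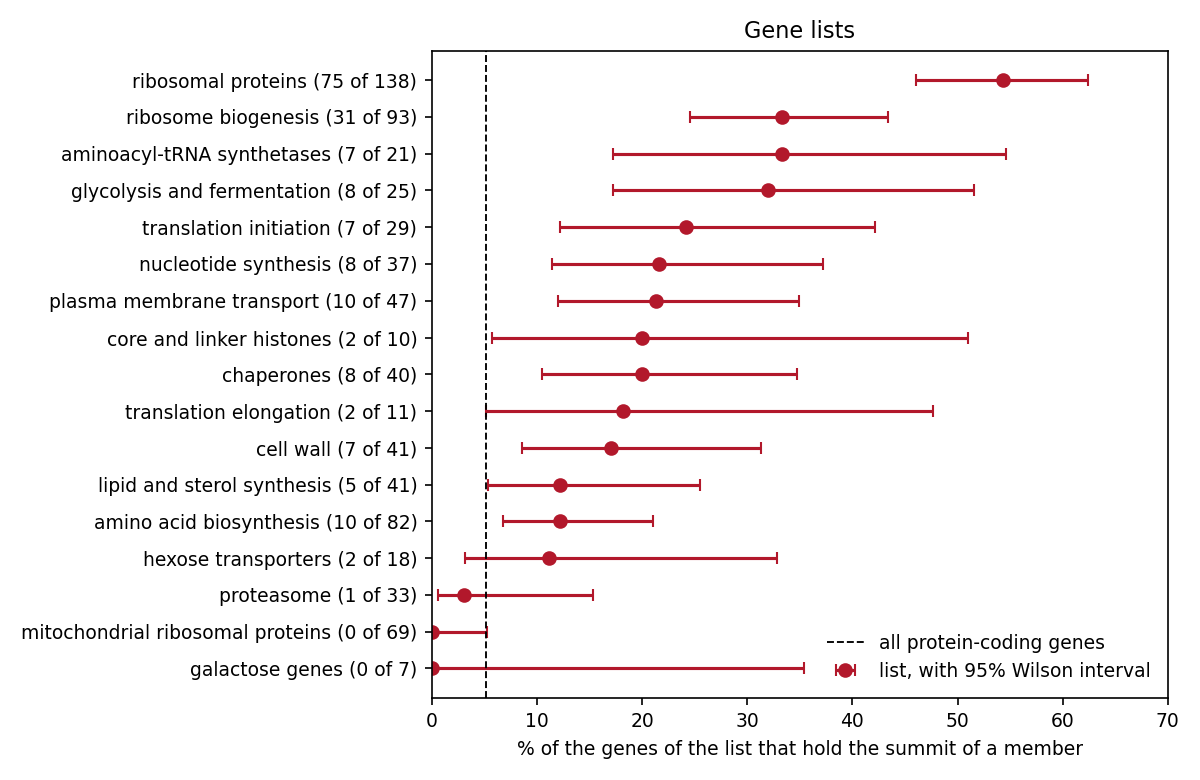
Share of the genes of each list (%) that hold the summit of a region, with 95% Wilson intervals and a dashed line at the 5.10% of all protein-coding genes. Ribosomal protein genes lie at 54.3%. Mitochondrial ribosomal protein genes and galactose genes lie at 0, with intervals up to 5.27% and 35.4% that include the dashed line.

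The codon adaptation index, which measures how closely a gene's codons follow those of the ribosomal protein genes and goes with high expression, was used since RNA levels were not analysed here. The regions lay in genes with a median percentile of 92.6 among 5921 scored genes, and those of the removed peaks had 75.1. Of 326 regions in scored genes, 120 (36.8%, from 31.8% to 42.2%) lay in the 5% of genes with the highest index, and 49 (15.0%, from 11.6% to 19.3%) lay below the median gene. For the removed peaks the shares were 29.1% (from 22.8% to 36.3%) and 41.3% (from 34.2% to 48.7%). The rule bears on these shares too, because it removed by cdc7-7 GAL peaks. The summits of those peaks lay in 18.1% of the genes of the lowest decile, the highest share of any bin. How far these genes overlap promoters was not tested. The shares are therefore a description of how the list was divided. Since ribosomal protein genes are the reference set, their own rank is high by construction. Without them, 18.7% of the regions lay in the highest 5% and the median percentile was 88.5.

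Read by gene, the share holding a region was higher toward the top of the index. It lay between 1.35% and 2.70% in each decile below the 80th percentile, then at 7.77% from 80 to 90, 18.6% from 90 to 95 and 38.9% (from 33.5% to 44.5%) in the top 5%. The summits of cdc7-7 endogenous peaks away from the centromeres lay in 27.0% of the top 5% of genes and in at most 4.05% of the genes in the other bins. The summits of cdc7-7 GAL peaks lay in 18.1% of the genes of the lowest decile and in 8.11% of the top 5%. Fold enrichment of the regions had a median of 1.35 in genes below the 90th percentile, 1.36 from 90 to 95 and 1.53 in the top 5%. Not all regions lay in such genes. YPL062W, at percentile 0.279, held 1 with a fold enrichment of 1.24, and HAC1, at percentile 6.93, held 1 with 1.41. Both were chosen after their values were seen.

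**Figure D4:**
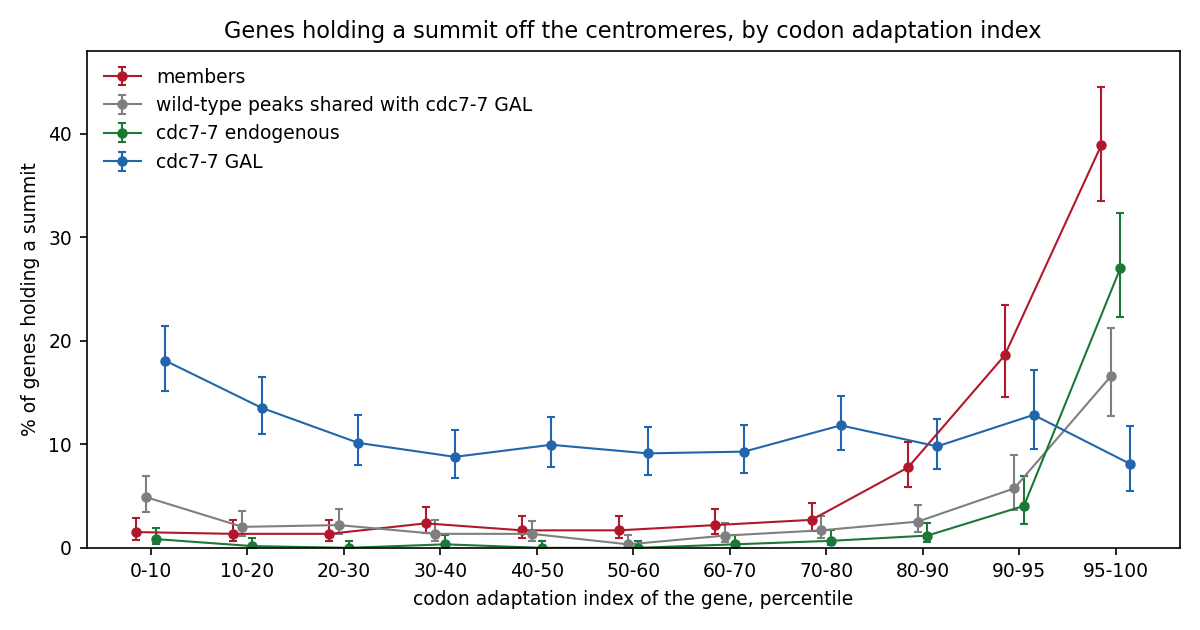
Share of genes (%) that hold a summit off the centromeres, by percentile of the codon adaptation index, for the 389 regions, the removed peaks, cdc7-7 endogenous and cdc7-7 GAL, with 95% Wilson intervals. The regions reach 38.9% and cdc7-7 endogenous 27.0% in the top 5% of genes, where cdc7-7 GAL lies at 8.11%.

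The cdc7-7 endogenous list, which the rule did not use, overlapped 67 of the 389 regions (17.2%, from 13.8% to 21.3%). The share was 17.0% among all 795 peaks off the centromeres and 16.7% among the removed peaks, so that it was near the background. It followed strength in both groups. Of the 50 strongest regions, 33 (66%) overlapped, of the next 50, 16 (32%), of the following 100, 9 (9%), and of the remaining 189, 9 (4.76%). The removed peaks in the same ranks had 66%, 22%, 10% and, for the remaining 206, 6.80%. Within genes the share was lower in the regions. In ribosomal protein genes 34 of 76 overlapped (44.7%, from 34.1% to 55.9%), against 14 of 23 removed peaks (60.9%, from 40.8% to 77.8%). In other genes 26 of 252 overlapped (10.3%, from 7.14% to 14.7%), against 34 of 152 (22.4%, from 16.5% to 29.6%). The intervals overlap in ribosomal protein genes and not in other genes, but they cover counting error only and are not a test. The groups were divided by cdc7-7 GAL peaks, and the part of the rule in this contrast was not tested. Outside genes it was 7 of 61 (11.5%), against 20 of 231 (8.66%). In the top 5% of genes by codon adaptation index the count was 52 of 120 (43.3%), against 32 of 50 (64%), and in other scored genes 7 of 206 (3.40%), against 16 of 122 (13.1%). From the side of cdc7-7 endogenous, 68 of its 167 peaks away from the centromeres (40.7%) overlapped 1 of the regions.

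The cdc7-7 endogenous library was shallower. When the pileup and background of each region were scaled to its depth, 171 of the 389 regions still passed the weakest p of that list. Of these, 58 (33.9%, from 27.2% to 41.3%) overlapped a peak. The removed peaks were near this, with 181 that passed and 54 of them overlapping (29.8%, from 23.6% to 36.9%). At the 67 shared regions the median fold enrichment was 1.61 in wild type and 1.69 in cdc7-7, with 46 higher and 21 lower in cdc7-7. The lowest fold enrichment in the cdc7-7 list was 1.38, so a weaker peak could not enter this comparison. CCW12 had 1.91 in wild type and 2.42 in cdc7-7, and HHT1 1.23 and 1.66, while YEF3, PMA1 and CDC19 were lower in cdc7-7. The summits lay a median of 58 bp apart, and 39 lay within 100 bp of each other.

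**Figure D5:**
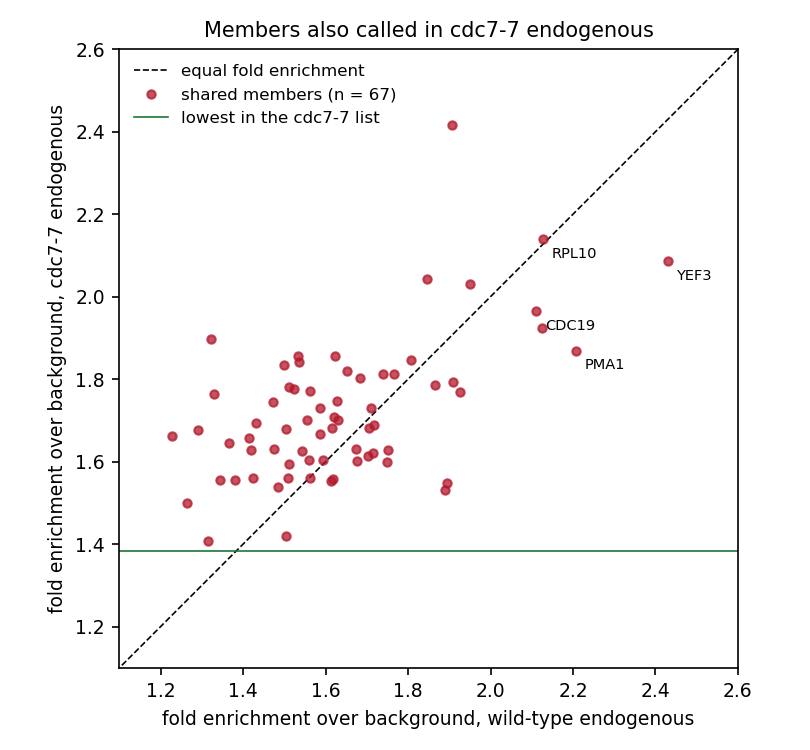
Fold enrichment over background in wild type endogenous (x axis) and cdc7-7 endogenous (y axis) at the 67 shared regions, with the dashed line at equal values and the green line at 1.38, the lowest value in the cdc7-7 list. There are 46 points above the dashed line and 21 below it.

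In wild type GAL, 3 of the 389 regions overlapped a peak (0.771%, from 0.263% to 2.24%), beside 1.76% of all 795 peaks off the centromeres. These were PMA1, CIS3 and DSE1, which encodes a daughter cell-specific protein, with 1.46 in wild type endogenous and 1.77 in wild type GAL. Scaled to the depth of that library, 37 regions would pass its weakest p, and 1 of them overlapped (2.70%, from 0.479% to 13.8%). Of the removed peaks, 32 would pass, and 6 of them overlapped (18.8%, from 8.89% to 35.3%).

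By the rule, no cdc7-7 GAL peak overlapped a region, so the distances to such peaks are a description. The nearest one lay at a median of 1152 bp, and 110 regions (28.3%) had one within 500 bp. Of the 306 genes that held a region, 119 (38.9%, from 33.6% to 44.5%) had a cdc7-7 GAL peak in the 500 bp upstream of the start codon. The share was 46.8% among all genes, 37.2% in the top 5% by codon adaptation index and 30.4% among ribosomal protein genes. The rule lowers the share of the region genes, because regions that reached such a peak were removed. The 3 regions closest to such a peak lay in NPP2 (10 bp, fold enrichment 1.26), in RPP0 (20 bp, 1.56) and upstream of RPS7A (26 bp, 1.22). Just outside the rule were removed peaks in HXK2, PHO90 and near VMA9, which overlapped a cdc7-7 GAL peak by 10, 18 and 27 bp, with 1.28, 1.28 and 1.32.

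Among the 61 regions with the summit outside genes, 38 lay between tandem genes, 12 between convergent genes and 11 between divergent genes. The nearest gene end was a stop codon for 38 of them (62.3%), against 34.6% of the 231 removed peaks outside genes, which the rule divided by cdc7-7 GAL peaks that lie often at promoters. The 5 strongest had 1.78 at CCW22, 1.67 at RPL6A/TCB3, 1.65 at GLR1/RPS6A, 1.63 at YHB1/MIC26 and 1.62 at OCA5/WSC4. The summit beside RPS6A lay 3 bp past the stop codon, and that beside YHB1, the flavohemoglobin gene, 20 bp past it. The regions at GLR1/RPS6A and YHB1/MIC26 were also called in cdc7-7 endogenous.

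Few regions lay over other features. A snoRNA gene was overlapped by 9 (2.31%), led by SNR24 in ASC1 (1.75), SNR63 under the region at RPL31A (1.62) and SNR17B beside RPL33A (1.57). Next came SNR128 and SNR190 beside RPA34 (1.5) and SNR59 in the intron of RPL7B (1.41). A tRNA gene was overlapped by 6 (1.54%), the strongest in AIR1 (1.44) and the next at YOL107W/WSC3 (1.39), HSP104/PAU17 (1.33), BAR1/YIL014C-A (1.31) and YMR050C/FAR3 (1.29). An origin was overlapped by 6, among them ARS1230 at RPL31B (1.42), ARS101 beside SEN34 (1.39), ARS1509 beside WSC3 (1.39), ARS316 in YCR090C (1.32) and ARS1521 (1.31). Long terminal repeats were overlapped by 3, and no rRNA gene or telomere by any. Of the removed peaks, 17 (4.19%) overlapped a tRNA gene, 13 (3.20%) a snoRNA gene and 9 (2.22%) an origin. The annotation holds 76 snoRNA genes, 275 tRNA genes and 352 origins. The share for random positions was not computed, so these counts have no background.

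Base composition was close to that of coding sequence, with a median of 40.3% G and C, against 39.6% in coding sequence, 34.8% outside it and 41.0% in the removed peaks. The sequence elements of the centromere were searched on both strands, as the CDEI octamers ATCACATG, ATCACGTG, GTCACATG and GTCACGTG, and as the CDEIII core of TG, 4 bases and CCGAA. CDEI was found at 15 of the 16 centromeres and the CDEIII core at 14, with both at a spacing of 92 to 101 bp at 12. Of the 389 regions, 9 (2.31%) held CDEI and 18 (4.63%) the CDEIII core, and none held both at that spacing. Of all 27489 genome windows of 439 bp, the median width of the regions, 2.76% held CDEI and 2.69% the CDEIII core. The absence of these letters says nothing of what is bound there.

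Transcription was not analysed here, and no untagged or mock precipitation was used. The part of transcription in the enrichment was not tested, and neither was that of the tag that the labels and the study name differently.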

How the data were processed

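Peak lists of Cse4 ChIP-seq from 4 strains, each with 1 ChIP and 1 input library, were used. The authors aligned paired reads to R64 with Bowtie 1.0.0, keeping reads with 1 reportable position, removed duplicates with SAMtools, down sampled the inputs and called peaks with MACS. The deposited lists give the authors' fold enrichment (a ratio), −log10 p and −log10 q at each summit. R64 was also the build of the reference used for genes, centromeres and sequences.

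Overlap required at least 1 bp, and genes were assigned by the summit. The pileup and background were solved from the fold enrichment and the Poisson −log10 p, as tested on simulated data, and the median background at the centromeres measured depth, since the lists state no number of fragments. Codon adaptation was scored in genes of at least 50 informative codons against the usage of the ribosomal protein genes. Unique 50-mers were counted on both strands. Of the 540 symbols in the gene lists, 5 had no match in the annotation. Python 3.11.15, numpy 2.4.6, scipy 1.17.1 and matplotlib 3.10.9 were used.

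The members and lists were chosen with earlier results of these data known. The genes named were the 25 strongest, the highest 4 of each list, the 5 widest, the 5 strongest outside coding sequence, those in both other lists, up to 5 each over tRNA genes, snoRNA genes and origins, the 5 weakest, and the 3 on each side of the overlap rule. Some genes that this rule names are not reported here. NEW1, YRA1, RPL39, YPL062W, HAC1, DSE1, the genes with few unique 50-mers and the weaker examples between genes were picked once their values had been seen. The CDEIII pattern planned first, TG, 6 bases and CCGAA, matched 0 of 16 centromeres. The pattern with 4 bases was chosen after seeing this. The count without ribosomal protein genes and the bins by rank and gene length were also added after seeing the data. Alternatives were stricter thresholds, other overlap rules, the midpoint, scaled depth and another reference set.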

Additional observations from a re-analysis of the deposited data

How the results depend on the processing

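The count of regions moved most with the threshold: 172 passed a minimum −log10 q of 5 and 103 a minimum fold enrichment of 1.5. Under the other rules for removing peaks it ran from 279, with any cdc7-7 GAL peak within 500 bp, to 494, with at least 50% of the peak covered. At these stricter thresholds the share overlapping cdc7-7 endogenous was 33.7% and 49.5%, the share in the top 5% of genes by codon adaptation index 62.3% and 76.7%, and the median percentile 96.7 and 98.1. The overlap with cdc7-7 endogenous was 10.5% where at least 50% of the region had to be covered and 33.9% at scaled depth, and that with wild type GAL was 0.257% and 2.70%. The midpoint in place of the summit put 76.1% of the regions in coding sequence. The highest 10% of genes held 57.7% of the in-gene regions. Without ribosomal protein genes, an alternative chosen after seeing the data, the share in the top 5% was 18.7% and the median percentile 88.5. For the gene lists, 24 counts under an alternative differed from the main count by over 1.5 times and 27 did not. The place of the summit along the gene, the fold enrichment at the shared regions and the nearest gene end outside genes were not recomputed under another setting. Apart from the overlaps at scaled depth, neither were the comparisons with the removed peaks. The stricter thresholds test fewer regions by construction, and the cause of the other shifts was not tested. Scaled to the depth of the shallower lists, 171 regions would pass in cdc7-7 endogenous and 37 in wild type GAL. Of these, 58 and 1 overlapped a peak. The part of depth in the overlaps was not tested further. No paired analysis was possible because each strain has 1 library and no result comes from a test.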
